A study of Mus musculus with 6 samples.

Results

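The gasdermins described here are the 7 mouse genes Gsdma, Gsdmc, Gsdmc2, Gsdmc3, Gsdmc4, Gsdmd and Gsdme, taken by symbol from a table of 35434 genes. All 7 were found in it. The study transferred regulatory T cells (Tregs) into mice with inflammatory bowel disease and sequenced RNA of the large intestine. The transferred cells were control Tregs or Tregs treated with lenvatinib, an inhibitor of several receptor tyrosine kinases. The labels name 2 groups, int 2 and int 3, with libraries 1 to 3 in each (n = 3 libraries per group), and give no key from number to transferred cells. Differences are given as int 3 minus int 2, and neither group is called control or treated. Strain, age, cell dose and the way the disease was induced are not given in the sources used here. Nothing in the labels states that each library is its own mouse, so p-values here reflect the spread between libraries, which may be technical.

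Gasdermins are proteins with a pore-forming amino-terminal part held silent by a carboxy-terminal part. When a protease cuts the linker between the parts, the freed amino-terminal part assembles into pores in the plasma membrane, through which interleukin 1 beta and interleukin 18 leave the cell and which can end in pyroptosis, a lytic cell death. Gsdmd is cut by the inflammatory caspases Casp1 and Casp4 and is expressed in intestinal epithelium and in myeloid cells. The Gsdmc genes are a mouse-expanded branch expressed in intestinal epithelium, where interleukin 4 and interleukin 13 are known to induce them through Stat6. Gsdma is known mainly from skin and other squamous epithelia.

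The libraries held 34.0 to 35.1 M fragments each, recovered from the steps in the FPKM values (fragments scaled to the length of the gene and to the library total). The epithelial markers Epcam, Krt8 and Vil1 were abundant in all 6 libraries, and of 6 small intestinal markers Lct, Sis, Apoa1 and Gata4 stayed at or below 0.533 FPKM. The other 2, Fabp6 and Alpi, were at 6.37 to 9.67 and 0.224 to 0.387 FPKM in int 2. In int 3-1, int 3-2 and int 3-3 Fabp6 gave 30.2, 3.40 and 52.2 FPKM and Alpi 2.11, 4.33 and 0.0244. Int 3 was far less uniform than int 2. Over the 12525 tested genes the log2 difference between a pair of int 2 libraries had an SD of 0.110 to 0.115, and between a pair of int 3 libraries one of 0.271 to 0.513. In int 3, library 1 lay between libraries 2 and 3 for 73.5% of tested genes. For the 4 tested gasdermins it lay near the mean of the other 2. The values were 317 against 308 FPKM for Gsdmc4, 65.6 against 68.2 for Gsdmc2, 36.0 against 36.4 for Gsdmc3 and 67.7 against 67.8 for Gsdmd. Whether int 3-1 is a sample apart from the other 2 is not given, and every SD and p-value below treats it as one. Hoxb13, known as a marker of distal colon, gave 285 to 288 FPKM across int 2, against 146 (int 3-1), 16.4 (int 3-2) and 267 (int 3-3). In bulk tissue fewer cells of a type and less RNA per cell cannot be told apart, which holds for every level below.

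The gasdermins fell into an abundant and a scarce set. FPKM is a level per length of gene, so a comparison between genes depends on the length counted. That length, recovered from the values, was 2647 bases for Gsdmc4, 4875 for Gsdmc2, 3590 for Gsdmc3, 1966 for Gsdmd, 11715 for Gsdme, 2791 for Gsdma and 2382 for Gsdmc. In the same order, the GENCODE M21 transcripts with the longest coding sequence have 1988, 1981, 1443, 1792, 2502, 2726 and 2405 bases. A counted length above that of the transcript lowers FPKM, most for Gsdme, Gsdmc3 and Gsdmc2. The order of genes below, and which genes reach the filter of 1 FPKM, therefore rest on the counted lengths. Gsdmc4 was the most abundant gasdermin in all 6 libraries. In int 2 it was followed by Gsdmc2, Gsdmc3 and Gsdmd, whose int 2 ranges did not touch each other (82.3 to 83.8, 62.1 to 68.8 and 44.9 to 47.9 FPKM). In int 3 the ranges of Gsdmc2 and Gsdmd overlapped (49.6 to 86.8 and 53.2 to 82.4 FPKM). At these counted lengths Gsdmd stood above Gsdmc3 in each int 3 library, the reverse of the int 2 order. Gsdme, Gsdma and Gsdmc stayed below 1 FPKM in all 6 libraries.

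**Figure D1:**
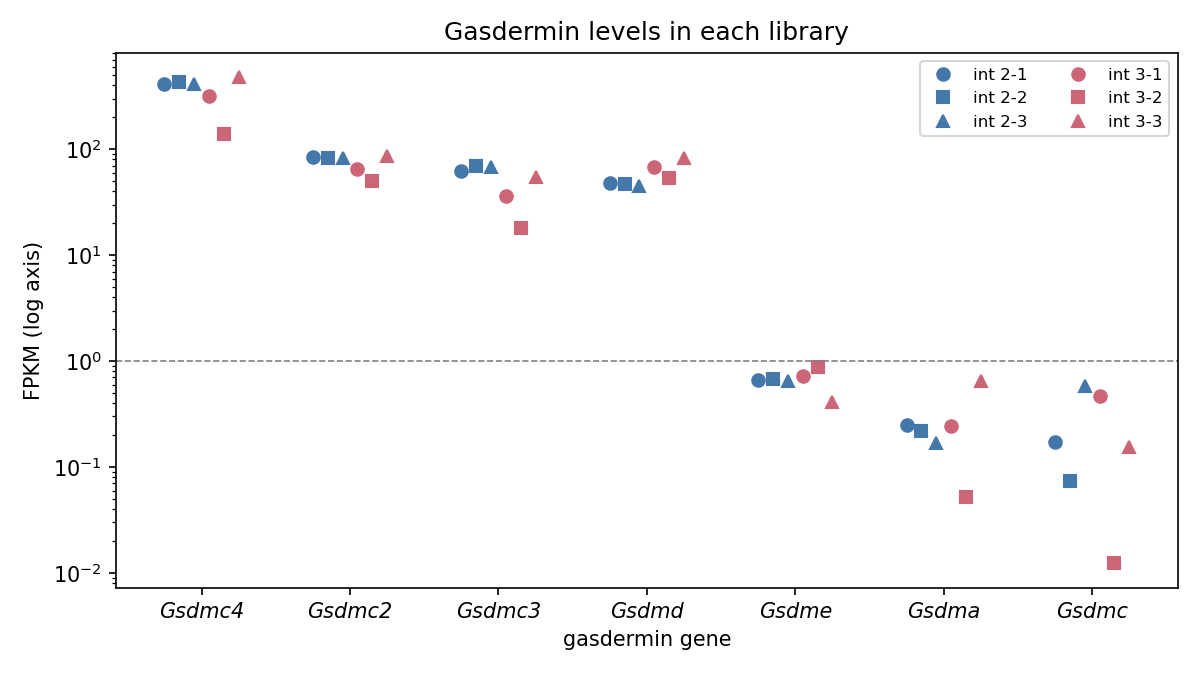
FPKM of the 7 gasdermins on a log axis, 1 point per library (blue int 2, red int 3; circle, square and triangle for libraries 1, 2 and 3). The dashed line is the filter at 1 FPKM: Gsdmc4, Gsdmc2, Gsdmc3 and Gsdmd lie above it in every library, and Gsdme, Gsdma and Gsdmc below it.

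The 3 abundant Gsdmc paralogs are close copies of each other, which bears on how their fragments could be assigned. The 4 Gsdmc genes are consecutive protein-coding genes in the RefSeq annotation of GRCm38.p6. In GENCODE M21 (GRCm38) the coding sequences of Gsdmc2, Gsdmc3 and Gsdmc4 are each 1440 bases or 480 codons long, and those of Gsdmc and Gsdmd 1404 and 1461 bases. Gsdmc2 and Gsdmc3 differ at 42 of 1440 aligned bases (97.1% identity), and each of them is 93.8% identical to Gsdmc4. Gsdmc shares 87.0% to 87.5% of aligned bases with the other 3, while Gsdmd shares 57.1% to 59.6% with the Gsdmc genes.

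The first 120 coding bases show how alike the copies are, with capitals at each base that differs from Gsdmc4. There Gsdmc2 differs from Gsdmc4 at 2 bases, Gsdmc3 at 1 and Gsdmc at 13.
Gsdmc4: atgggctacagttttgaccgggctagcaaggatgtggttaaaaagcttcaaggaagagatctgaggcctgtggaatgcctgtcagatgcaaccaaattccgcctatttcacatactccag
Gsdmc2: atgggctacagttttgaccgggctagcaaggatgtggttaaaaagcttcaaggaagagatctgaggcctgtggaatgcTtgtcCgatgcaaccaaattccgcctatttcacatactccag
Gsdmc3: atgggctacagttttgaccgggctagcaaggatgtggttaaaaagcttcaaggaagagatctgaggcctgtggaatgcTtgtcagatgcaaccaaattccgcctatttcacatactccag
Gsdmc: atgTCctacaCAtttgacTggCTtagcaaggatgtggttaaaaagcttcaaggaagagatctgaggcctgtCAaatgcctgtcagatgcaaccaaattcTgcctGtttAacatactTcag

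The copies differ more in the middle of the gene. The next stretch is the 120-base window, aligned by codon and without gaps, in which Gsdmc4 and Gsdmc3 differ most, coding bases 763 to 882 of Gsdmc4 and 757 to 876 of the other 2, again with capitals at differences from Gsdmc4. Gsdmc2 differs there from Gsdmc4 at 21 bases, Gsdmc3 at 19, and Gsdmc2 from Gsdmc3 at 14.
Gsdmc4: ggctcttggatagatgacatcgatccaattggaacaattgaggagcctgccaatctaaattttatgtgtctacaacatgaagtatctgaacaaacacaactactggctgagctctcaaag
Gsdmc2: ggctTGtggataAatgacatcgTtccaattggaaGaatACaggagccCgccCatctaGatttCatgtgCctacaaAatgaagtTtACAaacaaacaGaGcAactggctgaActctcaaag
Gsdmc3: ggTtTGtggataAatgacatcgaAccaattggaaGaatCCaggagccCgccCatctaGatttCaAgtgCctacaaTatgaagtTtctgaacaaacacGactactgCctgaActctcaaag

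Of all 100-base windows in a coding sequence, 28.0% of those of Gsdmc2, 31.2% of Gsdmc3, 27.7% of Gsdmc4 and 10.3% of Gsdmc occur unchanged in a transcript of another of the 7 members. At 150 bases the shares were 17.5%, 21.9%, 13.2% and 5.66%. For Gsdma, Gsdmd and Gsdme the share was 0% at both lengths. All 7 members came out as whole fragments in every library (within 0.02 fragments). The search took the largest unit that gave whole numbers. Regular fractions of fragments would thus also come out whole, with a longer counted length, so this cannot show whether fragments were split. Whether shared fragments were dropped, split or given whole to 1 gene is not given in the sources used here. The split among Gsdmc2, Gsdmc3 and Gsdmc4 is therefore uncertain. Their summed FPKM also depends on it, because the counted lengths differ (4875, 3590 and 2647 bases), and dropped fragments would lower it.

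Of the 7 gasdermins 4 reached 1 FPKM in at least 3 libraries and were tested across all genes with limma on log2(FPKM + 1). None of the 4 passed at an adjusted p of 0.05, where 15.3% of all tested genes did. At an unadjusted p of 0.05, 2 of the 4 (Gsdmc3 and Gsdmd) were below the threshold, against 32.1% of all tested genes. The groups did not overlap for the same 2 genes, as for 40.4% of all tested genes. The 3 Gsdmc paralogs had negative log2 changes and Gsdmd a positive one, against a median of 0.03 over all tested genes. These signs held under all 15 alternatives run for each gene, 14 planned and 1 added.

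Gsdmc4 measured 412, 426 and 409 FPKM in int 2-1 to int 2-3, and 317, 140 and 477 in int 3-1 to int 3-3. Int 3-2 was by far the lowest library, at 33.7% of the int 2 mean, while int 3-3 exceeded every int 2 library, so the groups overlapped. The means were 416 ± 8.96 and 311 ± 168 FPKM (SD, n = 3 each), and the log2 change was -0.58 (SE 0.41, limma adjusted p = 0.37). Gsdmc4 rested on 12609 to 44231 fragments per library, a counting error of at most 0.891%, far below the spread within int 3. Its log2 range across int 3 was 1.76, and 1.13% of tested genes had a range as wide, with a median of 0.26.

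Gsdmc2 gave 83.8, 83.1 and 82.3 FPKM in int 2-1 to int 2-3, and 65.6, 49.6 and 86.8 in int 3-1 to int 3-3. The order of the int 3 libraries was that of Gsdmc4, with a narrower span, and int 3-3 again lay above int 2. Its log2 change was -0.34 (SE 0.19, limma adjusted p = 0.26).

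Gsdmc3 was lower in all 3 int 3 libraries than in any int 2 library. It measured 62.1, 68.8 and 68.0 FPKM in int 2-1 to int 2-3, and 36.0, 18.1 and 54.7 in int 3-1 to int 3-3. The means were 66.3 ± 3.66 and 36.3 ± 18.3 FPKM (SD, n = 3 each), with a log2 change of -0.98 (SE 0.36, limma adjusted p = 0.12). Groups that did not overlap with int 3 lower were seen in 17.9% of all tested genes. Even in int 2 the SD of Gsdmc3, 5.52% of its mean, exceeded the counting error of 1.08% to 1.14% in those libraries. That of Gsdmc2 in int 2, 0.943%, lay closer to its counting error there, 0.845% to 0.854%. Without int 3-2 the log2 change of Gsdmc3 was -0.57 (limma adjusted p = 0.054).

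Summed over the 4 Gsdmc genes, int 2 held 558, 578 and 560 FPKM and int 3 held 419, 208 and 618 FPKM in libraries 1 to 3. The sum in int 3-3 was thus above, and those in int 3-1 and int 3-2 below, all int 2 libraries. The composition of the sum moved as well. Gsdmc3 made up 11.1% to 12.1% of the sum in int 2 and 8.60% to 8.84% in int 3, a share that was nearly constant across the int 3 libraries although their sums ran from 208 to 618 FPKM. Gsdmc2 took 14.0% to 15.7% in 5 libraries and 23.9% in int 3-2.

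Gsdmd, the main executioner of inflammasome signalling, stood higher in every int 3 library than in any of int 2. It gave 47.9, 47.0 and 44.9 FPKM in int 2-1 to int 2-3, and 67.7, 53.2 and 82.4 in int 3-1 to int 3-3. The means were 46.6 ± 1.54 and 67.8 ± 14.6 FPKM (SD, n = 3 each), with a log2 change of 0.51 (SE 0.15, limma adjusted p = 0.070). Int 3 lay above int 2 without overlap in 22.4% of all tested genes. In int 3 the libraries kept the order seen for the Gsdmc paralogs, int 3-2 lowest and int 3-3 highest, but int 3-2 was 114% of the int 2 mean for Gsdmd and 27.3% to 59.7% of it for Gsdmc2, Gsdmc3 and Gsdmc4.

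Calls for the members turned on single int 3 libraries. Without int 3-3 all 4 tested members passed, in a fit that called 39.2% of all tested genes: Gsdmc4 at -0.98 (limma adjusted p = 0.049), Gsdmc2 at -0.53 (0.014), Gsdmc3 at -1.34 (0.011) and Gsdmd at 0.36 (0.034). Over the 14 other settings listed in the methods the limma adjusted p ran from 0.049 to 0.70 for Gsdmc4, 0.014 to 0.45 for Gsdmc2, 0.011 to 0.29 for Gsdmc3 and 0.0034 to 0.21 for Gsdmd. The added fit with int 2 averaged to 1 sample, in which 0 of 12525 genes passed, gave 0.86, 0.83, 0.76 and 0.70. Without int 3-2, a fit that called 21.0% of all tested genes, Gsdmd alone passed, at 0.67 (adjusted p = 0.0034). There Gsdmc4 came to -0.10, Gsdmc2 to -0.14 and Gsdmc3 to -0.57. Gsdmd also passed after rescaling to TPM (0.58, limma adjusted p = 0.031), a fit that called 14.5% of all tested genes. With library weights estimated per group, which called 14.9%, Gsdmd and Gsdmc3 passed (limma adjusted p = 0.028 and 0.047).

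**Figure D2:**
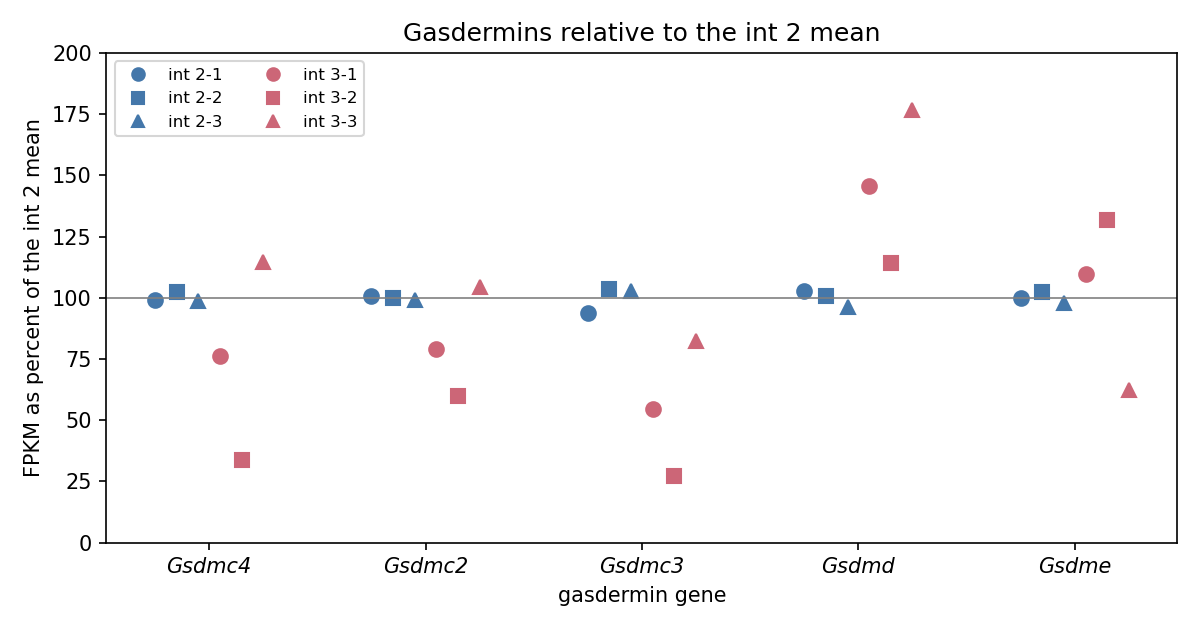
FPKM of 5 gasdermins in each library as a percent of the gene's int 2 mean (symbols as in the plot of levels). The int 2 libraries sit close to 100%. In int 3 the Gsdmc paralogs and Gsdmd rank int 3-2, int 3-1, int 3-3 from low to high, and Gsdme ranks them the other way.

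Gsdme was scarce and did not follow the epithelial paralogs. It stood at 0.660, 0.676 and 0.647 FPKM in int 2-1 to int 2-3, and at 0.725, 0.871 and 0.411 in int 3-1 to int 3-3. Here int 3-2 was the highest library and int 3-3 the lowest, on 347 and 169 fragments, and the groups overlapped. The exact Poisson intervals of these 2 libraries, which cover counting error only, did not touch (0.781 to 0.967 and 0.352 to 0.478 FPKM, 95%). The group means were 0.661 ± 0.0147 and 0.669 ± 0.235 FPKM (SD, n = 3 each).

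Gsdma and Gsdmc rested on few fragments. Gsdma had 24, 21 and 16 fragments in int 2-1 to int 2-3, and 23, 5 and 63 in int 3-1 to int 3-3, or 0.0527 to 0.644 FPKM over all 6 libraries. Its high library was int 3-3 and its low one int 3-2. Gsdmc had 14, 6 and 47 fragments in int 2-1 to int 2-3, and 38, 1 and 13 in int 3-1 to int 3-3, or 0.0123 to 0.578 FPKM. Its int 2 libraries differed more among themselves than the group means did, and it was the only member whose int 3-1 value did not lie between int 3-2 and int 3-3. The 8 markers of squamous epithelium, where Gsdma is best known, were at or below 0.730 FPKM in all 6 libraries, and none of them was tested. The gasdermins outside the named 7 were nearly silent: Gsdma2, Gsdma3 and Pjvk reached at most 0.0477 FPKM.

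To set the epithelial paralogs against Gsdmd and Gsdme, ratios were taken within each library, where library scaling cancels. The summed Gsdmc paralogs exceeded Gsdmd 11.6, 12.3 and 12.5 times in int 2-1 to int 2-3, and 6.19, 3.90 and 7.51 times in int 3-1 to int 3-3. Every int 3 library was below every int 2 library, also int 3-3, in which the sum itself was highest. Gsdmd alone already did not overlap between the groups, as 40.4% of all tested genes did not. How often ratios of other genes separate the groups was not counted, here or for the ratios below. The mean log2 ratio was 3.60 ± 0.05 in int 2 and 2.50 ± 0.48 in int 3 (SD, n = 3 each), a difference of -1.10 or 2.15-fold lower. In a two-sided exact permutation test this gave p = 0.1, the smallest that 3 against 3 libraries allow, and adjusted p = 0.167 over the 5 ratios compared. With any single library left out the difference stayed between -1.31 and -0.83.

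Against Gsdme the summed paralogs gave no such separation. The ratio was 845, 854 and 866 in int 2-1 to int 2-3, and 578, 239 and 1502 in int 3-1 to int 3-3. Int 3 lay on both sides of int 2, and the difference in mean log2 ratio was -0.53 (two-sided exact permutation p = 0.7, adjusted p = 0.7). Without int 3-2 its sign turned, to 0.12.

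The other 3 ratios, chosen after the values had been seen, were between paralogs. Gsdmc4 exceeded Gsdmc3 6.63, 6.19 and 6.02 times in int 2-1 to int 2-3 and 8.79, 7.75 and 8.72 times in int 3-1 to int 3-3, without overlap (log2 difference 0.42, exact permutation p = 0.1, adjusted p = 0.167). Gsdmc2 exceeded Gsdmc3 1.35, 1.21 and 1.21 times in int 2 and 1.82, 2.74 and 1.59 times in int 3, also without overlap (0.67, exact permutation p = 0.1, adjusted p = 0.167). Gsdmc4 over Gsdmc2 overlapped between the groups, at 4.91 to 5.12 in int 2 and 4.83, 2.82 and 5.49 in int 3-1 to int 3-3 (-0.25, exact permutation p = 0.7, adjusted p = 0.7). So Gsdmc3 was the paralog lower relative to both others in each int 3 library, under the reservation on shared fragments above.

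**Figure D3:**
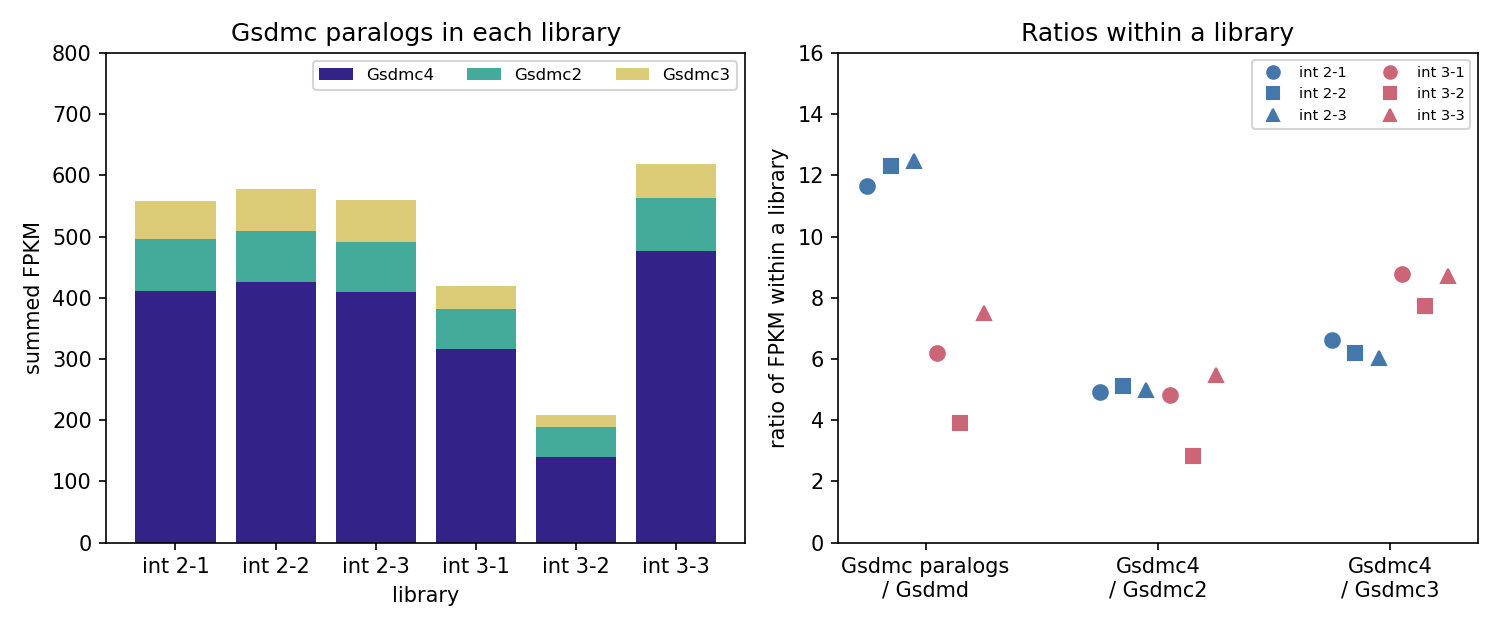
Left, FPKM of Gsdmc4, Gsdmc2 and Gsdmc3 stacked for each library (bars from 0; Gsdmc is too low to draw). Right, ratios of FPKM within each library: the Gsdmc paralogs over Gsdmd are 11.6 to 12.5 in int 2 and 3.90 to 7.51 in int 3, and Gsdmc4 over Gsdmc3 is 6.02 to 6.63 and 7.75 to 8.79.

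The 6 epithelial markers summed to 4234 to 4275 FPKM in int 2 and to 4293, 3750 and 4797 in int 3-1 to int 3-3, and 0 of them passed the test. Epcam, an adhesion molecule of all intestinal epithelium, ranged from 681 to 700 FPKM over int 2, and int 3-1 to int 3-3 gave 638, 595 and 684 (limma log2 change -0.11, adjusted p = 0.31). Per Epcam the Gsdmc sum was 0.814 to 0.825 in int 2 and 0.656, 0.349 and 0.904 in int 3-1 to int 3-3, so int 3-2 stayed the lowest and int 3-3 the highest library. Per Epcam Gsdmd was 0.0659 to 0.0699 in int 2 and 0.106, 0.0895 and 0.120 in int 3. Per Cdh1 it was 0.249 to 0.270 in int 2 and 0.419, 0.362 and 0.455 in int 3-1 to int 3-3. Per Vil1 it was 0.357 to 0.374 and 0.502, 0.389 and 0.637, so int 3-2 lay only slightly above int 2 there. The markers of surface colonocytes summed to 4726 to 4830 FPKM in int 2 and to 4346, 2870 and 5919 in int 3-1 to int 3-3, with 2 of 7 fallen and 0 risen. The markers of the distal large intestine summed to 308 to 312 and to 174, 26.9 and 310 FPKM. All 3 sums had int 3-2 lowest in int 3 and int 3-3 highest, but they are carried by a few abundant genes. Other members of these lists ran the opposite way: in int 3-1 to int 3-3 Krt18 gave 196, 221 and 166 FPKM, Krt20 141, 176 and 116, and Guca2a 398, 618 and 232. The 6 markers of crypt base and cycling cells, of which 4 fell and 0 rose, summed to 86.0 to 89.1 FPKM in int 2 and to 66.9, 77.7 and 55.1 in int 3-1 to int 3-3, highest in int 3-2. Their part in the results was not tested.

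Markers of other cell types that could carry gasdermin transcripts also moved. Of the 6 macrophage markers, all tested, 4 rose and 0 fell, and their sum was 81.8 to 86.8 FPKM in int 2 and 134, 128 and 143 in int 3-1 to int 3-3. Of the 6 neutrophil markers S100a8 and S100a9 were at or below 0.224 FPKM in int 2 and at 2.23 to 12.7 FPKM in int 3. They entered the test only through int 3, so their calls are not counted. The sum of all 6 was 38.9 to 39.7 FPKM in int 2 and 119, 75.2 and 162 in int 3, most of it Ly6g, which did not pass (1.25, limma adjusted p = 0.070), while Elane stood at 0 and Mpo at or below 0.0462 FPKM in all libraries. All 5 B cell markers fell, and 3 of 5 T cell markers. Gsdmd is expressed in myeloid cells as well as in epithelium, and the part of these markers in its level was not tested.

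The genes whose pattern over the 6 libraries was most like the Gsdmc sum, by Pearson's r of log2(FPKM + 1), were Abcc3 (1.00), Cldn8 (0.999), Slc6a14 (0.999), Eef1a1 (0.999) and Ttc38 (0.999). Abcc3 is an export pump for conjugates, Cldn8 a tight junction claudin and Slc6a14 an amino acid transporter. Cldn8 measured 40.5 to 41.6 FPKM over int 2, then 30.6, 13.8 and 45.6 in int 3-1 to int 3-3. For Gsdmd they were Adamdec1 (0.999), Znrf2 (0.999), Clec2h (0.999), Plac8 (0.998) and Sema4a (0.998). Plac8 was 122 to 126 FPKM in int 2 and 209, 148 and 277 in int 3. Such values over 6 libraries are common, with 474 tested genes at r of 0.95 or more with the Gsdmc sum and 226 with Gsdmd, and the 3 close int 2 libraries act almost as 1 point.

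The genes around the gasdermins were counted from 5 lists. The first 4 lists hold genes that sense danger, cut gasdermins, leave through or repair the pores, or act upstream of the gasdermin genes. The last holds genes of the type 2 and tuft cell axis. Of the 53 listed genes 39 were tested, 13 rose, 2 fell and 24 did not pass. The called share was 38.5%, against 15.3% of all tested genes. The lists were chosen with earlier results of these data known, so this share is a description only. Among all tested genes 8.64% rose and 6.70% fell. The median log2 change of the 39 was 0.23, against 0.03 over all tested genes. Of the 15 calls 4, among them Zbp1, Il1b and Il13ra1, passed with each library left out in turn. Vps4b was lost without int 2-3 and without int 3-1, and the other 10 without any 1 of int 2-1, int 2-2, int 2-3 and int 3-1. The number of calls in these lists was 4 or 5 in those 4 fits, which called 4.91% to 5.13% of all tested genes. It was 24 when int 3-2 was left out and 23 when int 3-3 was, fits that called 21.0% and 39.2% of all tested genes. The 2 falls, and so the 15 calls and their share, include Trpm5, which entered the test only through int 2 and lends them no support. With median-of-ratios scaling, which called 15.5% of all tested genes, the number of calls was 9. There Nlrp6, Nlrp9b, Pycard, Casp1, Chmp4b and Irf1 no longer passed.

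Of the 15 inflammasome sensors and adaptors 11 were tested, 4 rose and 1 fell. Zbp1, a sensor of nucleic acids in the Z form, rose from 3.01 ± 0.316 to 18.2 ± 2.82 FPKM (SD, n = 3 each; log2 change 2.25, SE 0.12, limma adjusted p = 0.00030). Nlrc4, which assembles the inflammasome for flagellin, rose from 4.75 ± 0.330 to 7.06 ± 0.780 FPKM (0.48, adjusted p = 0.018). Pycard, the adaptor ASC, rose from 89.5 ± 3.42 to 112 ± 6.19 FPKM (0.31, adjusted p = 0.019). The fourth was Nlrp6, an epithelial sensor, at 0.41 (adjusted p = 0.038). Nlrp9b, a sensor of intestinal epithelium, fell from 7.51 ± 0.392 to 4.54 ± 1.08 FPKM (-0.64, adjusted p = 0.036). Nlrp3, the sensor best known from macrophages, stood at 0.119 ± 0.0226 and 0.198 ± 0.0956 FPKM and was not tested.

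Of the 10 proteases 6 were tested and 2 rose, both of them enzymes that cut Gsdmd. Casp4, the receptor for cytosolic lipopolysaccharide, gave 12.0, 10.9 and 12.8 FPKM in int 2-1 to int 2-3 and 20.2, 18.6 and 27.9 in int 3-1 to int 3-3 (log2 change 0.83, SE 0.15, limma adjusted p = 0.017). Casp1 rose from 63.5 ± 1.09 to 78.4 ± 6.88 FPKM (0.30, SE 0.07, adjusted p = 0.041). For both genes int 3 lay above int 2 without overlap, as for 22.4% of all tested genes. Casp8, which has been tied to the cutting of Gsdmc and Gsdmd, stood at 25.0 to 25.8 FPKM in int 2 and 26.8 to 33.2 in int 3 (0.23, adjusted p = 0.11). The granzyme Gzmb stood at 0.0706 ± 0.0398 and 0.698 ± 0.0681 FPKM, below the filter, and the neutrophil proteases Elane and Ctsg were listed at 0 in all 6 libraries.

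Of 10 genes of pore cargo, membrane rupture and repair 9 were tested and 3 rose. Il1b, the cytokine that leaves through Gsdmd pores, rose from 1.34 ± 0.267 to 4.70 ± 0.448 FPKM (SD, n = 3 each; 1.29, limma adjusted p = 0.0013). The others were Vps4b (0.31, adjusted p = 0.0066) and Chmp4b (0.32, adjusted p = 0.015), parts of the ESCRT machinery that removes damaged membrane. Il18, the epithelial cytokine of the same pores, gave 49.8, 49.4 and 48.2 FPKM in int 2-1 to int 2-3 and 68.7, 34.3 and 100.6 in int 3-1 to int 3-3 (0.33, adjusted p = 0.56). It was thus lowest in int 3-2 and highest in int 3-3, the order of Gsdmd and the Gsdmc paralogs. Ninj1, which ruptures the membrane after pore formation, stood at 27.7 ± 1.41 and 25.3 ± 3.13 FPKM (-0.13, adjusted p = 0.38).

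All 9 upstream factors and receptors were tested, and 4 rose. Il13ra1 and Il4ra, the chains of the receptor for interleukins 4 and 13, rose by 0.43 and 0.84 on the log2 scale (limma adjusted p = 0.0040 and 0.011). Irf1, an interferon-induced factor of which Gsdmd is a known target, rose from 27.3 ± 0.939 to 45.5 ± 11.3 FPKM (SD, n = 3 each; 0.69, adjusted p = 0.046). Irf2, also known to drive Gsdmd, stood at 6.25 ± 0.170 and 5.17 ± 1.30 FPKM (-0.25, adjusted p = 0.29), and Stat6 at 23.6 ± 0.238 and 23.8 ± 2.46 (0.01, adjusted p = 0.95).

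Of 9 genes of the type 2 and tuft cell axis 4 were tested. The 1 called lower was Trpm5, a cation channel of tuft cells, at 1.31 ± 0.125 FPKM in int 2 and 0.332 ± 0.311 in int 3 (SD, n = 3 each; -0.82, limma adjusted p = 0.026). It entered the test only through int 2, and the call was lost without the filter and with pseudocounts of 0.1 and 0.01. Retnlb, a goblet cell peptide induced in type 2 responses, ranged from 48.0 to 50.3 FPKM over int 2, against 379, 771 and 54.9 in int 3-1 to int 3-3 (2.34, adjusted p = 0.13). It was highest in int 3-2, where the Gsdmc paralogs were lowest. Clca1, a secreted goblet cell protein, ran the other way, at 184 to 187 FPKM over int 2 and 83.5, 20.8 and 137 in int 3-1 to int 3-3 (-1.56, adjusted p = 0.15). The cytokines Il4, Il13 and Il25 were listed at 0 in all 3 int 3 libraries and at up to 0.144 FPKM in int 2. The remaining cytokine of the list, Il5, stood at 0.0186 to 0.0764 FPKM in int 3 and at 0 to 0.0954 in int 2. All of these values lay far below the filter, too low to compare the groups.

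**Figure D4:**
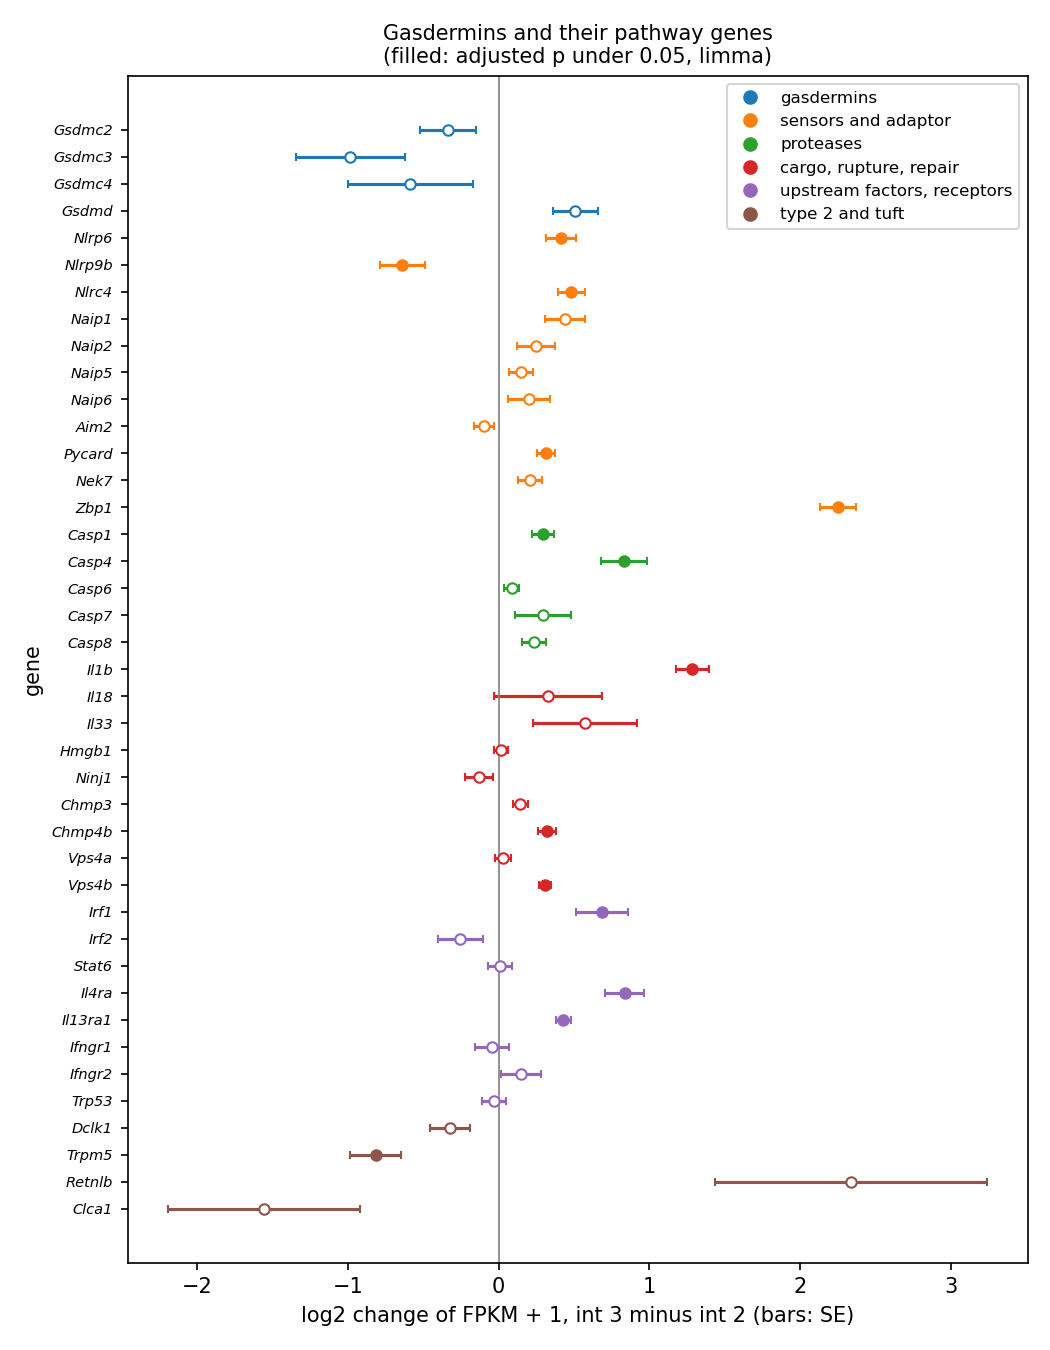
Log2 change of FPKM + 1, int 3 minus int 2, with its SE, for the 4 tested gasdermins and 37 of the 39 tested genes of the 5 lists around them (colours by list; filled points at limma adjusted p under 0.05). The 4 gasdermins are open, with the 3 Gsdmc paralogs left of 0 and Gsdmd right of it, and 12 of the 14 filled points lie right of 0.

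Promoter sequence was at hand for only 2 of the 7 members, Gsdmc3 and Gsdme, from RefSeq on GRCm38.p6. Each is 1 gene of the abundant or the scarce set and does not represent it. A relation of promoter sequence to level was not tested. Both lines give the 250 bases before the annotated start, with capitals at CG dinucleotides and motif matches. Searched on both strands were TATAAA and its longer variant TATATAA (matches of the pair can overlap), the STAT motif TTCNNNGAA, its STAT6 form with 1 more base in the middle, and the interferon-stimulated response element core. The first lies at chr15:63878559-63878808 and the second at chr6:50261770-50262019, both on the minus strand.
Gsdmc3: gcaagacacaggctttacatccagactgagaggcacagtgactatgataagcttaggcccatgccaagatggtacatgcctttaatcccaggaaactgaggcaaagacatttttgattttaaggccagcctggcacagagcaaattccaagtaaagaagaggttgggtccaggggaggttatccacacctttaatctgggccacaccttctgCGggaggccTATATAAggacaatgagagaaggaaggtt
Gsdme: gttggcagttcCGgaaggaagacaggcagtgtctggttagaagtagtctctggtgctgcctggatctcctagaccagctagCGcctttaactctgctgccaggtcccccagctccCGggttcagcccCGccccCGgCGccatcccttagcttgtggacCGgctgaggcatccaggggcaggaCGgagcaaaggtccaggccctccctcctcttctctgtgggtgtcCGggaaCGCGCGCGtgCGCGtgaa

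Gsdmc3 held 1 CG and Gsdme 15, with a median of 6 over 32851 promoter windows. Gsdmc3 had a TATATAA that began 29 bases before the start, a motif found in 3.04% of all windows, and Gsdme had none. The other motifs were in neither window, and occurred in 12.4% (TATAAA), 7.02% (TTCNNNGAA), 5.85% (STAT6 form) and 2.98% (interferon-stimulated response element core) of all windows.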

How the data were processed

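RNA of 6 large intestine samples was sequenced, and the authors deposited 1 table of FPKM values. The submitters' processing notes name genome build GRCm39. Aligner, counter, annotation and treatment of shared fragments are not given in the sources used here. Columns were tied to samples by title. The steps in the FPKM values gave library totals and whole fragments (97.3% of the shortest genes had whole lengths within 0.05 bases). These served for counting error only. The fit used limma 3.58.1 under R 4.3.3 on log2(FPKM + 1), for genes that reached FPKM 1 in 3 or more libraries (trend, two-sided, Benjamini-Hochberg over 12525 genes). Such log2 changes understate those of low genes. Ratios were compared by exact permutation with Python 3.11.15. On simulated data for this comparison with 12525 genes, 59.1% of genes changed 1.5-fold were recovered. At 2-fold the share was 85.1%. Of the calls 5.15% were false. The simulation used equal spread in both groups, which int 2 and int 3 did not have. Its shares are averages over 200 changed genes per draw, taken from all tested genes, whose median SE was 0.088. The tested gasdermins had SEs of 0.15 to 0.41, so these shares do not hold for them.

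The members and gene lists were chosen with earlier results of these data known. All 7 members are named. From each list the 3 passing genes with the smallest p in each direction are named by rule, and other listed genes were named after their values were seen. Like patterns are the 5 highest correlations. Alternatives were pseudocounts of 0.1 and 0.01, no filter, a mean FPKM of 5, TPM, median-of-ratios scaling, a replicate block, weights per group and leaving out each library. For ratios they were a mean over paralogs, a pseudocount of 1, the block and leaving out each library. Averaging int 2 to 1 sample was added after seeing the data. Results of some listed genes are not reported here.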

Additional observations from a re-analysis of the deposited data

How the results depend on the processing

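As reported, limma called 0 gasdermins (2 at an unadjusted p under 0.05), 1921 genes in all and 15 of the listed pathway genes. The gasdermin count was 1 with TPM, 2 with library weights per group, 0 to 4 with 1 library left out, and 0 in the other alternatives. The TPM and weighted fits called 14.5% and 14.9% of all tested genes. Leaving out 1 library gave 615 to 4913 genes in all and 4 to 24 pathway genes. Median-of-ratios scaling gave 1942 genes in all and 9 pathway genes. TPM raised the share of higher genes among the calls from 56.3% to 66.6%. Same-numbered libraries did not deviate together (r from -0.02 to 0.00), and not every library correlated best with its own number. The int 2 libraries differed little among themselves (SD of the log2 difference 0.110 to 0.115). This check therefore cannot decide whether the numbers pair the samples. With the replicate block 889 genes, 7 pathway genes and 0 gasdermins passed, and in the block the paralog ratio to Gsdmd had an exact sign-flip permutation p = 0.25, the smallest that 3 pairs allow, and that to Gsdme p = 0.75. With int 2 averaged to 1 sample limma called 0 genes (1132 at an unadjusted p under 0.05) and 0 pathway genes, a fit in which int 3 alone gives the spread. The paralog ratio to Gsdmd ranged from -1.31 to -0.83 on the log2 scale with 1 library left out, and that to Gsdme from -1.20 to 0.12, reversed without int 3-2 only. Depth limits Gsdma and Gsdmc, whose counting error reached 44.7% and 100% of the value.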
